A study of Mus musculus with 2 samples.

Results

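Klf9, Klf10, Klf11, Klf13, Klf14 and Klf16 encode zinc finger transcription factors of the BTEB and TIEG groups, and Sin3a and Sin3b encode the corepressor scaffolds that these factors can bind. The members were taken by symbol: every row of both deposited expression files whose gene name was one of these 8 symbols. They are 8 of the 23320 gene symbols named in both files, and 8 of the 18742 symbols above 0 in at least 1 library. Each member had 1 row in each file, no row joined a member with another symbol (0 such rows), and all 8 were above 0 in both libraries.

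The study compared primordial germ cells (PGCs) infected with a lentivirus that carries Klf9 with PGCs infected with a control lentivirus, in a search for factors that help PGCs become pluripotent embryonic germ cells. PGCs at E13.5 were sorted by GFP from genital ridges of both sexes, obtained from MCH females mated with Oct4-deltaPE-GFP males on a C57BL/6J background. Both groups were infected at an MOI (viruses added per cell) of 5 and cultured for 1 day on gelatin-coated plates. By the labels they differ in the lentivirus. The paper describes the Klf9 coding region as cloned into the CSII-EF vector. A Flag tag is given by the name of the cloning oligonucleotides, whose bases outside Klf9 were not examined here. The paper lists CSII-EF-MCS, CSII-EF-mcherry and empty pLKO.1 as control vectors and does not say which was used here. The sample labels describe the medium as containing bFGF, and the paper describes it as lacking bFGF. Each group is 1 library, so no difference below has a replicate check and no test was made. Levels are FPKM (fragments per kilobase of transcript, scaled to the mapped reads of the library), which can be compared between genes because they are per length. An exception is Klf9 in Klf9-OE PGCs, because the vector carries only part of the length that its FPKM is divided by. Each is given with its Cufflinks 95% interval, which covers the error of estimation within a library and not the spread between cultures.

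As background, proteins of the BTEB and TIEG groups bind GC-rich and CACC elements with the zinc fingers at their C terminus, the elements that Sp1 also binds. A short helix near their N terminus binds Sin3, which brings histone deacetylases to the promoter. KLF9 is known as a target gene of thyroid hormone and glucocorticoid receptors, and KLF10 and KLF11 as early response genes of TGF-beta.

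The FPKM of Klf9 counts reads from the vector and from the chromosome together, and the study's own oligonucleotides show why. They are printed here because their positions set what the Klf9 value can hold. The capitals mark the bases that match Klf9, the part of the cloning oligonucleotides that does not match is left out, and all are written 5′ to 3′. The cloning pair spans coding positions 1 to 735, counted from the A of the start codon, with its forward match at chr19:23141755-23141768 and its reverse match at chr19:23164893-23164912 of mm10. The RT-qPCR pair covers coding positions 441 to 460 (chr19:23142195-23142214, exon 1) and 540 to 560 (chr19:23164717-23164737, exon 2).
Flag-Klf9 cloning forward, Klf9 part: ATGTCCGCGGCCGC
Flag-Klf9 cloning reverse, Klf9 part: TCACAAGGGGCTGGCAAGAG
Klf9 RT-qPCR forward: CAGTGGCTGTGGGAAAGTCT
Klf9 RT-qPCR reverse: GAGCGCGAGAACTTTTTAAGG

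All 4 lie inside the coding region, which both the vector and the chromosomal gene transcribe, so neither the RT-qPCR product nor a read in the coding region tells the sources apart. The vector carries the coding region without the rest of the transcript. In the GENCODE M21 annotation of mm10, Klf9 lies at chr19:23141226-23168134 on the forward strand, with 2 exons and a transcript of 4486 bases. Its coding region of 732 bases without the stop codon makes up 16.3% of that transcript, with 529 bases of 5′ UTR before it and 3225 bases, stop codon included, after it.

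Reads of 51 bases from the vector would have to match another family member to raise that member's value. The 685 stretches of 51 bases in the Klf9 coding region were compared with the transcripts of 25 other Klf and Sp genes. No stretch matched one of them exactly or with up to 2 mismatches (0 in each of the 25). The nearest genes were Klf14, Klf16 and Klf5, each with 43 of 51 bases identical (8 mismatches). No exact stretch lay in a transcript of any other gene among 141767 GENCODE transcripts (0 genes), and 0 of 28 pairs of members shared an exact stretch of 51 bases. The stretch where the other 5 Klf members came closest on average is shown for that reason. It is coding position 559 to 609 of Klf9 (chr19:23164736-23164786), within the zinc finger region in exon 2, and lies inside the coding region of every gene below. Capitals mark bases that differ from Klf9.
Klf9: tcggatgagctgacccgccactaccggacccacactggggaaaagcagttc
Klf16: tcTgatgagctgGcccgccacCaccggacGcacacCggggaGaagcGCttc
Klf14: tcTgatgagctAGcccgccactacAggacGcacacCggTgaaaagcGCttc
Klf13: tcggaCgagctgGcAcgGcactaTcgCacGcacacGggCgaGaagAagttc
Klf11: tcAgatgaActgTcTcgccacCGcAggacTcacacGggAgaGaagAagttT
Klf10: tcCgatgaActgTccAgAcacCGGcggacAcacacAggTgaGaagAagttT

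Klf16 had 43 bases identical to Klf9 here, Klf14 had 42, Klf13 had 40, Klf11 had 38 and Klf10 had 37. The BTEB genes were therefore nearer to Klf9 than the TIEG genes in this stretch, and even the nearest had 8 differing bases, more than the 2 mismatches allowed in the comparison.

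Klf9 was the member that differed most between the libraries. It had 2.27 FPKM (1.97 to 2.57) in control PGCs and 80.8 FPKM (77.0 to 84.5) in Klf9-OE PGCs. The intervals lay far apart, and the ratio was 35.6 (31.2 to 40.6), a log2 fold change of 5.09 ± 0.19 (95% error of estimation, on log2(FPKM + 0.1)). Since the vector carries Klf9, this value checks the label of the Klf9-OE library, and how much of it comes from the chromosomal gene cannot be told apart. Among the 11527 other genes with at least 1 FPKM in both libraries, small RNA symbols (Mir, Snor, Scarna and Rnu) left out, 0 had a larger log2 rise than Klf9. The 12565 genes with at least 1 FPKM in only 1 or in both libraries add genes below 1 FPKM in the other and the small RNA symbols. Of these 12565, 1.59% had a log2 fold change at least as far from 0. Among the 11527 genes, the 3 whose log2 fold change was nearest were Glrx2, a mitochondrial glutaredoxin, at 4.62, 1700001L19Rik at 3.99, and Sub1, a transcriptional coactivator, at 3.84. Glrx2 had 5.37 FPKM (0 to 22.6) in control PGCs, so that its rise was poorly estimated.

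The extent that Cufflinks assembled for Klf9 was not the same in the libraries. In control PGCs it ran over chr19:23141039-23168100, starting 187 bases before the annotated start and ending 34 bases before the annotated end. In Klf9-OE PGCs it ran over chr19:23141226-23166911 and ended 1223 bases before the annotated end, inside the 3′ UTR. FPKM divides by transcript length, so the exon length within each extent (4639 bases in control with the 187 before the start, 3263 bases in Klf9-OE) enters the ratio. Rescaled to the annotated 4486 bases, a calculation chosen after seeing the data, Klf9 had 2.35 FPKM in control PGCs and 58.7 FPKM in Klf9-OE PGCs, a ratio of 25.04. The 3263 and the 4486 bases are both longer than the 735 coding positions in the vector, so either length understates the level of vector RNA. The rescaling puts the libraries on the same length and does not correct for this. The other 7 members had the same extent in both files. Over the 12508 symbols with a single row in each file and at least 1 FPKM in a library, 27.4% had extents that differed.

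**Figure D1:**
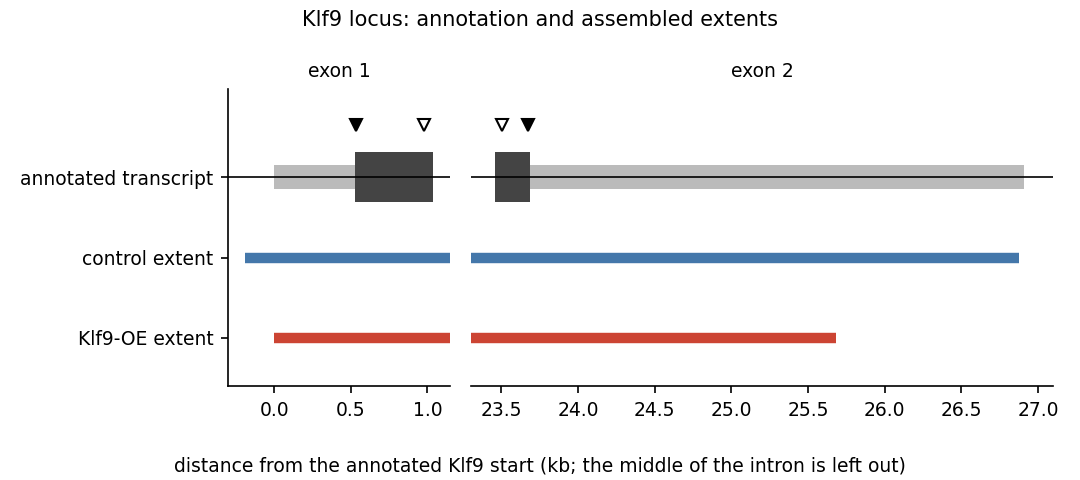
Annotated Klf9 transcript (grey, coding region black) with the extent assembled in the control library (blue) and in the Klf9-OE library (red), as distance in kb from the annotated start, drawn to scale with the middle of the intron left out. Filled triangles mark the cloning oligonucleotides and open triangles the RT-qPCR pair, all within the coding region, and the Klf9-OE extent stops 1223 bases before the annotated end.

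The control extent reaches into the 250 bases before the annotated start, which the vector does not carry. That window is printed from RefSeq (GRCm38.p6, chr19:23140976-23141225, forward strand) beside the same region of Klf11, the Klf member with the highest level in control PGCs, of which 153 bases are shown (chr12:24651121-24651273, forward strand) because GENCODE places the transcript start there. Capitals mark the GC box GGGCGG on either strand, searched with overlapping matches counted separately.
Klf9: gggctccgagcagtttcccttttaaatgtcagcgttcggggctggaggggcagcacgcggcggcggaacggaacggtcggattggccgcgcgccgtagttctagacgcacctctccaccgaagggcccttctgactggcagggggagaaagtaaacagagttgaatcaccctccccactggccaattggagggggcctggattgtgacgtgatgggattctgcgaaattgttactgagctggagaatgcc
Klf11: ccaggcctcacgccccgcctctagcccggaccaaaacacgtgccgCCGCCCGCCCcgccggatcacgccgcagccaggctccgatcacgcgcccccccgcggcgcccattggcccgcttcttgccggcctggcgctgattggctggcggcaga

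RefSeq windows were matched for 5 of the 8 members, 6 windows in all, and not for Klf10, Klf14 and Klf16. Klf9 had 0 matches to GGGCGG in 250 bases and 1 match to CACCC. Klf11 had 4 matches to GGGCGG in its full 250 bases, 2 of them overlapping in the part printed, and Klf13 (chr7:63938916-63939165, reverse strand) had 3. Sin3a had 1 match in its first window (chr9:57071790-57072039) and 3 in its second (chr9:57076126-57076375), and Sin3b had 1 (chr8:72723020-72723269). Of 32851 promoter windows of this length, 32.7% held GGGCGG and 52.0% held CACCC. These matches describe letters only.

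Among the TIEG genes, Klf10 and Klf11 lay on opposite sides of equality. Klf10 (chr15:38291463-38300706, reverse strand), known as TIEG1, had 23.9 FPKM (22.4 to 25.4) in control PGCs and 29.7 FPKM (28.0 to 31.3) in Klf9-OE PGCs. Klf11 (chr12:24651274-24662789, forward strand), known as TIEG2, had 27.0 FPKM (25.7 to 28.3) in control PGCs and 21.9 FPKM (20.7 to 23.1) in Klf9-OE PGCs. For both genes the intervals of the libraries did not overlap. Klf10 was 1.24 times as high in Klf9-OE PGCs (log2 0.31 ± 0.12), and Klf11 was 0.812 times as high (log2 -0.30 ± 0.10). The order of these 2 genes was thus turned: Klf11 was 1.13 times the level of Klf10 in control PGCs, and Klf10 was 1.35 times the level of Klf11 in Klf9-OE PGCs. Cufflinks assembled Klf10 anew in the control library only, so its values may rest on different transcripts. The part of this in the order was not tested.

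Neither difference reached the 2-fold level that counts as a call here, and changes of this size were common. Of the 12565 genes with at least 1 FPKM in a library, 31.9% had a log2 fold change at least as far from 0 as that of Klf10, and 33.2% at least as far as that of Klf11. The 9 TGF-beta ligands, receptors and Smads listed had 0 genes called in either direction, a median log2 fold change of -0.06, and intervals apart for 2 higher and 2 lower genes, where 7.72% of genes with at least 1 FPKM in a library were called and 34.9% had intervals apart. Its member with the highest level, the common mediator Smad4, had 19.5 FPKM (18.4 to 20.6) in control PGCs and 23.1 FPKM (21.9 to 24.3) in Klf9-OE PGCs.

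The BTEB genes other than Klf9 were low to moderate and had overlapping intervals. Klf16 (chr10:80567124-80577321, reverse strand), a repressor described on dopamine receptor promoters, had 10.4 FPKM (9.61 to 11.2) in control PGCs and 9.09 FPKM (8.43 to 9.76) in Klf9-OE PGCs. Klf13 (chr7:63886351-63938915, reverse strand), known for activating Ccl5 late after T cell activation, had 6.57 FPKM (6.17 to 6.96) and 5.999 FPKM (5.66 to 6.34). Klf14 (chr6:30956023-30959078, reverse strand), a gene of 1 exon with maternal expression, had 0.249 FPKM (0.135 to 0.364) and 0.344 FPKM (0.222 to 0.466). The log2 fold changes were -0.19 ± 0.15 for Klf16, -0.13 ± 0.12 for Klf13 and 0.35 ± 0.60 for Klf14. The error of Klf14 runs from a log2 fold change of -0.26 to 0.95, so that equal levels and a rise of nearly 2-fold both lie within it at this depth. The 0.1 FPKM added to both levels narrows this range for a gene so low. Its interval corresponds to 18.9 reads in control PGCs and 31.9 in Klf9-OE PGCs, against 1109 and 1242 reads for Klf13. Most read numbers implied in the Klf9-OE library were even, and if each read there had been counted 2 times, the Klf9-OE values would stand for 15.9 reads of Klf14 and 621 of Klf13, which was not tested.

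**Figure D2:**
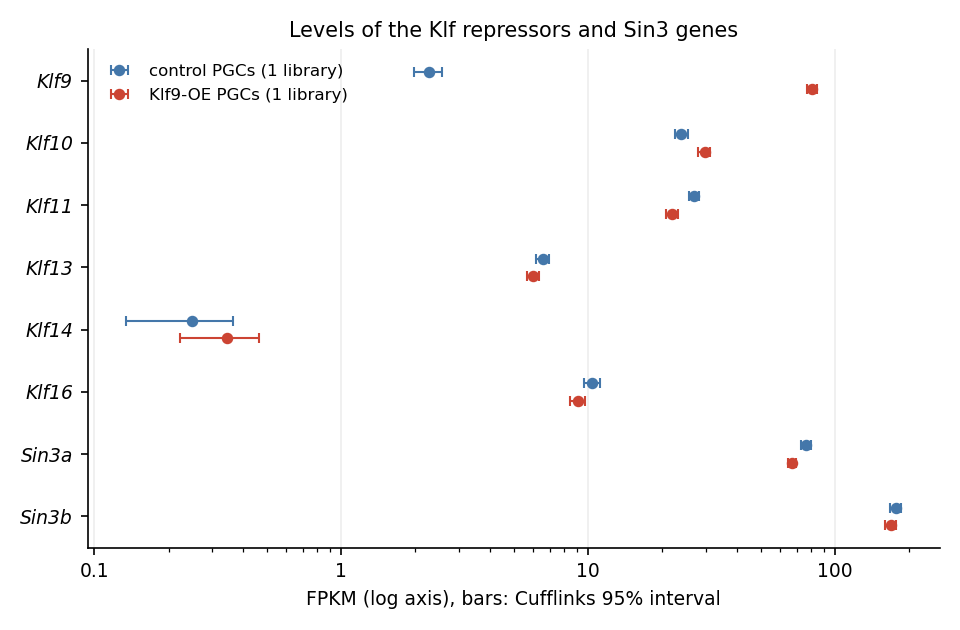
FPKM of the 8 members on a log axis, 1 point for each library (control PGCs blue, Klf9-OE PGCs red), with bars for the Cufflinks 95% interval. Klf9 moves from 2.27 to 80.8 FPKM, and the points of the other 7 members lie close to each other.

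Sin3b and Sin3a had the highest levels of the 8 members in control PGCs. Sin3b (chr8:72723285-72758201, forward strand, 19 exons) had 176 FPKM (168 to 185) in control PGCs and 168 FPKM (160 to 177) in Klf9-OE PGCs, with overlapping intervals and a log2 fold change of -0.07 ± 0.10. Sin3a (chr9:57072040-57128366, forward strand, 22 exons) had 76.5 FPKM (73.0 to 80.0) in control PGCs and 67.2 FPKM (64.6 to 69.7) in Klf9-OE PGCs, with intervals apart and a log2 fold change of -0.19 ± 0.08. Sin3a in Klf9-OE PGCs was 0.878 times its control level, and 48.1% of genes with at least 1 FPKM changed by as much or more. Sin3b was 2.31 times the level of Sin3a in control PGCs (2.16 to 2.46) and 2.51 times in Klf9-OE PGCs (2.36 to 2.66), intervals that overlap. In percentiles of the 18742 genes above 0, Sin3b stood at 97.9 in control PGCs and 97.8 in Klf9-OE PGCs, and Sin3a at 93.9 and 93.2.

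In control PGCs the order from high to low was Sin3b, Sin3a, Klf11, Klf10, Klf16, Klf13, Klf9 and Klf14, and no neighbours had overlapping intervals. Klf9 stood at percentile 43.8 of all genes above 0, next to last among the members, with 0.345 times the level of Klf13. In Klf9-OE PGCs Klf9 stood at percentile 94.5 and second, between Sin3b and Sin3a, with 1.20 times the level of Sin3a. Again no neighbours overlapped. That place depends on the shorter extent assembled for Klf9 in this library: on the annotated length Klf9 stood at percentile 92.1 and ranked 3, below Sin3a, with 0.875 times its level. Both lengths hold UTR that the vector lacks, so neither place ranks the vector RNA at its own length.

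The 6 Klf members summed to 70.4 FPKM in control PGCs and 148 FPKM in Klf9-OE PGCs. Klf9 made up 3.22% of that sum in control PGCs and 54.6% in Klf9-OE PGCs. On the annotated length of Klf9 the sum in Klf9-OE PGCs was 126 FPKM and the share of Klf9 was 46.7%, less than the other 5 together. Klf10 and Klf11 together made up 72.3% in control PGCs and 34.9% in Klf9-OE PGCs. Without Klf9 the sum of the other 5 was 68.1 FPKM in control PGCs and 67.0 FPKM in Klf9-OE PGCs. Sin3a and Sin3b summed to 253 FPKM and 235 FPKM, so that the Klf members held 0.278 FPKM for each FPKM of Sin3 in control PGCs and 0.628 in Klf9-OE PGCs (0.534 on the annotated length of Klf9). Both lengths of Klf9 hold UTR that the vector lacks, so the sums, shares and ratios in Klf9-OE PGCs understate the vector RNA. These are ratios of RNA and say nothing of protein.

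**Figure D3:**
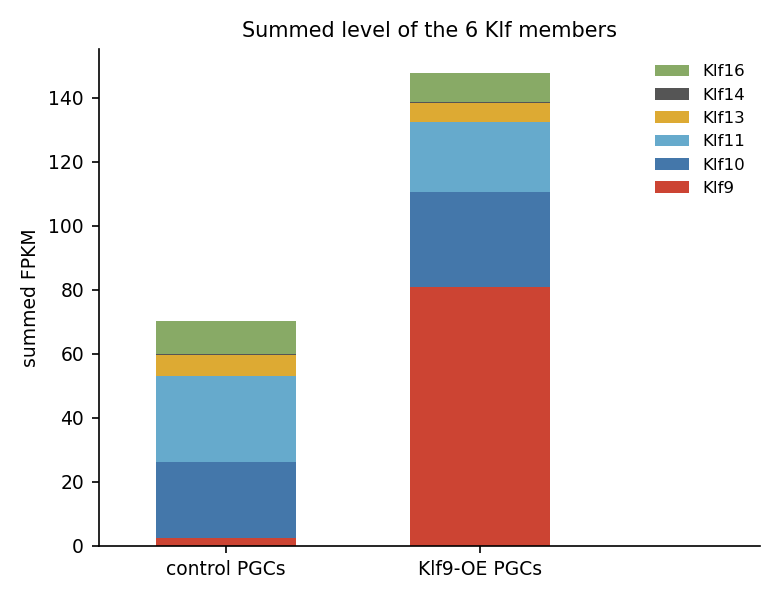
Summed FPKM of the 6 Klf members in each library, stacked by gene from 0. The stack grows from 70.4 to 148 FPKM, and the part of Klf9 grows from 3.22% to 54.6% of it, or to 46.7% on the annotated length of Klf9, which is not drawn.

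By the 2-fold rule 1 of the 8 members was called, Klf9, and 0 of the other 7 were. Over all genes above 0 in a library, 19.3% were called in either direction. Over genes with at least 1 FPKM in a library, which include 7 of the members and leave out Klf14, 7.72% were called in either direction and 3.93% were called with the higher level in Klf9-OE PGCs. The 7 members other than Klf9 had a median log2 fold change of -0.13, with 5 below 0 and 2 above 0. The median was -0.015 over the 18742 genes and -0.026 over genes with at least 1 FPKM.

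The intervals of the libraries were apart for 4 of the 8 members, Klf9 and Klf10 with the higher value in Klf9-OE PGCs and Klf11 and Sin3a with the lower. They were apart for 25.5% of all genes above 0 and for 34.9% of genes with at least 1 FPKM. Without Klf9 these are 3 of 7 members, too few to set apart from that background. The identifiers of the rows show that Cufflinks assembled Klf9, Klf11 and Sin3a anew in both libraries and Klf10 in the control library only. Klf13, Klf14, Klf16 and Sin3b kept the annotated transcript in both libraries. The 4 members with intervals apart are thus the 4 that were assembled anew in at least 1 library. Among genes with at least 1 FPKM and a single row, the intervals were apart for 36.7% of 9192 genes assembled anew in at least 1 library and for 30.2% of 3311 genes annotated in both. For the same 4 members the change in interval width did not follow the change in reads (within 10%), as it did for the other 4. The part of the assembly in these differences was not tested.

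The other family members gave the setting for these levels. Among the 26 Klf and Sp symbols in both files, Klf11 ranked 1 and Klf10 ranked 3 by level in control PGCs, Klf16 ranked 9, Klf13 ranked 14, Klf9 ranked 18 and Klf14 ranked 25. In Klf9-OE PGCs Klf9 ranked 1 and Klf10 ranked 2. Of the 11 other Klf genes 0 were called higher and 1 was called lower. It was Klf12, a repressor that binds CtBP rather than Sin3, with 1.55 FPKM (0.996 to 2.097) in control PGCs and 0.574 FPKM (0.458 to 0.690) in Klf9-OE PGCs. Klf5, the highest of them, had 13.9 FPKM and 11.5 FPKM. Of the 9 Sp genes 0 were called higher and 2 were called lower, both near the lower limit of the libraries. Sp8 had 0.302 FPKM (0.195 to 0.410) and 0.111 FPKM (0.0557 to 0.167), and Sp7 had 0.0175 FPKM in control PGCs and was listed at 0 in Klf9-OE PGCs. Sp1, the most abundant Sp gene and a competitor of the Klf members for GC boxes, had 25.4 FPKM in both libraries. The median log2 fold change was -0.14 for the other Klf genes and -0.07 for the Sp genes. Over all genes above 0 in a library 19.3% were called, so the counts of both families are near or below that share.

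**Figure D4:**
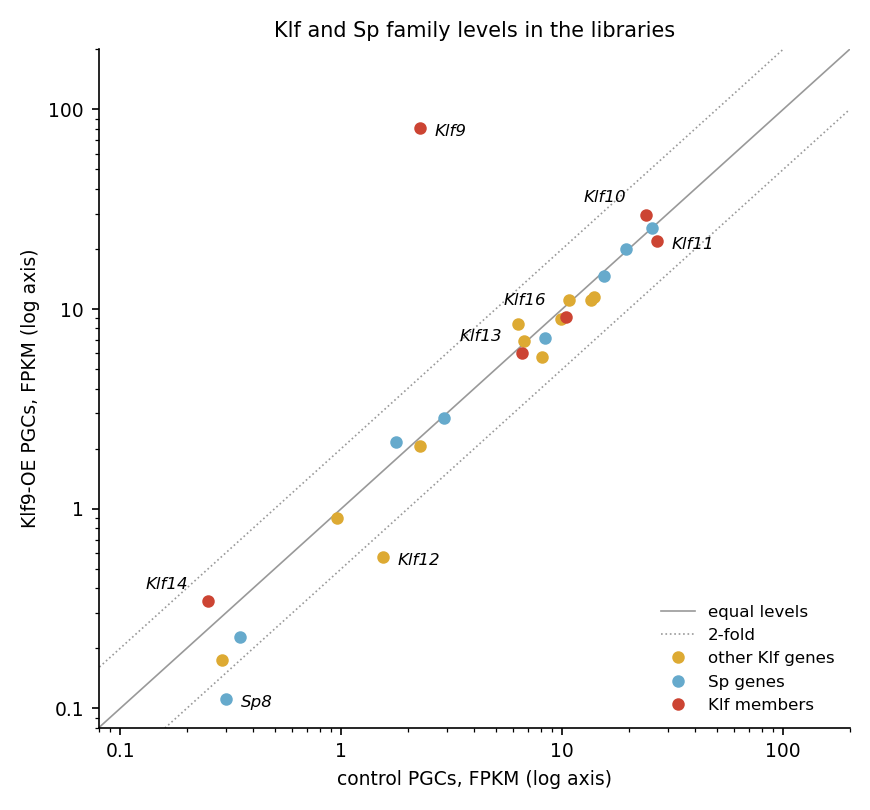
FPKM of Klf and Sp genes in control PGCs (x axis) and Klf9-OE PGCs (y axis), both on log axes, 1 point for each gene, with lines for equal levels and for 2-fold differences. Klf9 stands above the 2-fold line, Klf12 and Sp8 lie below it, and Sp7, listed at 0 in Klf9-OE PGCs, is not drawn.

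Next, the subunits that join SIN3A and SIN3B to histone deacetylases were described. Of the 20 genes of this list 19 had a row of their own in each file, and Sap18 did not. None reached a 2-fold difference (0 higher, 0 lower), where 7.72% of genes with at least 1 FPKM in a library did, so few would be found among 19. The ratios ran from 0.744 to 1.26, and the median log2 fold change was 0.04. The intervals were apart for 3 genes with the higher value in Klf9-OE PGCs and 4 with the lower, that is for 7 of 19 against 34.9% of genes with at least 1 FPKM. The value of Fam60a in control PGCs had an interval of 0 to 427 FPKM and cannot be compared.

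The 4 lower genes include 1 of the 2 deacetylases of the list. Hdac2 had 246 FPKM (237 to 255) in control PGCs and 195 FPKM (192 to 199) in Klf9-OE PGCs. The other deacetylase, Hdac1, had 82.4 FPKM (75.2 to 89.6) and 90.7 FPKM (88.2 to 93.2), with overlapping intervals. Suds3, the subunit also called SDS3 that holds the deacetylase in the complex, had 74.7 FPKM (71.5 to 78.0) and 55.6 FPKM (53.1 to 58.1), the lowest ratio of the list. Morf4l1, a chromodomain protein known as MRG15, had 249 FPKM (237 to 260) and 196 FPKM (187 to 205). Sap30l, a paralog of the Sin3-binding subunit Sap30, had 28.0 FPKM (25.9 to 30.1) and 24.1 FPKM (22.7 to 25.6). All 4 were lower by less than 2-fold, with log2 fold changes of -0.34 for Hdac2, -0.43 for Suds3, -0.34 for Morf4l1 and -0.22 for Sap30l.

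The 3 higher genes were Rbbp4, a histone-binding subunit, Brms1l, a paralog of Suds3, and Ing1, a reader of methylated histone H3. Rbbp4 had 165 FPKM (158 to 172) in control PGCs and 194 FPKM (186 to 202) in Klf9-OE PGCs. Brms1l had 8.50 FPKM (7.77 to 9.24) and 10.7 FPKM (9.50 to 11.9). Ing1 had 13.4 FPKM (12.2 to 14.6) and 16.4 FPKM (15.3 to 17.5). Their log2 fold changes were 0.23 for Rbbp4, 0.33 for Brms1l and 0.29 for Ing1. Of the 7 genes with intervals apart, 6 were assembled anew in at least 1 library, and Ing1 kept the annotated transcript in both.

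**Figure D5:**
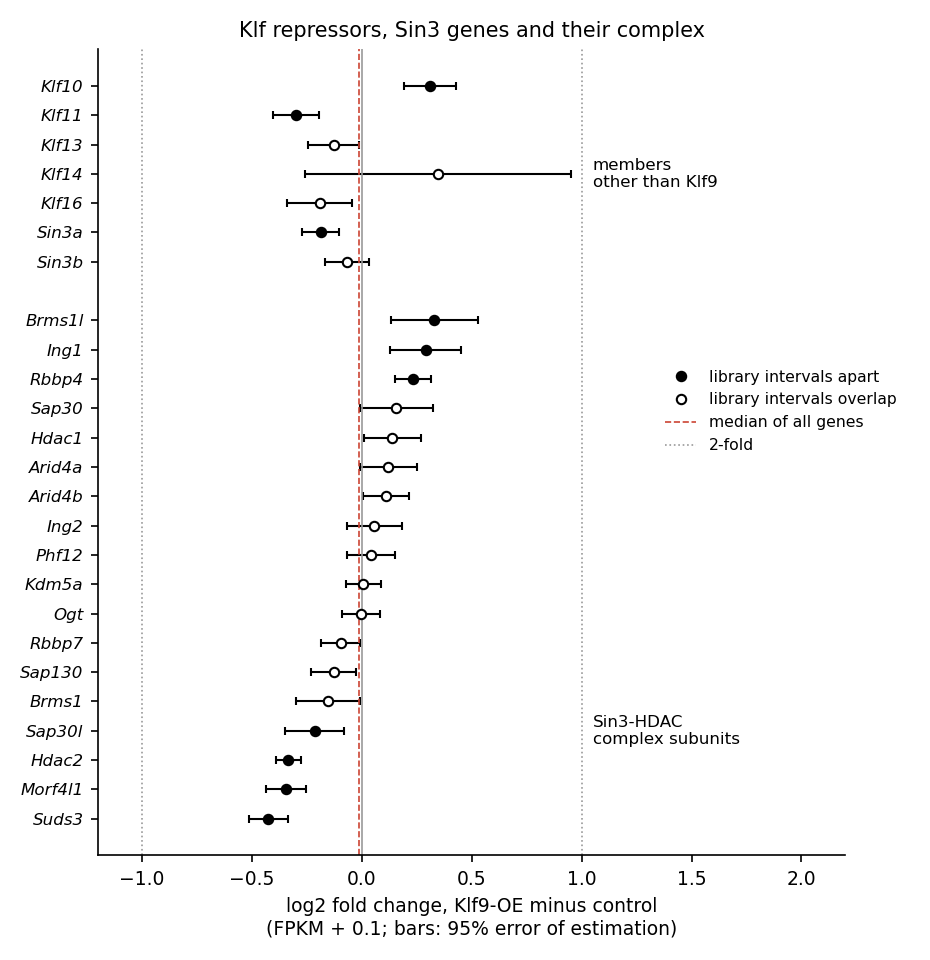
Log2 fold change (Klf9-OE minus control, FPKM + 0.1) of the 7 members other than Klf9 and of the Sin3-HDAC complex subunits, with bars for the 95% error of estimation. Filled points have library intervals apart. All points lie within the dotted 2-fold lines on either side of the median of all genes (dashed), and Fam60a is left out because its control interval spans 0 to 427 FPKM.

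Other proteins that recruit Sin3 and other deacetylase complexes were described in the same way. Of 7 other recruiters of Sin3, such as the MXD proteins and REST, 6 were above 0, 0 reached 2-fold and the median log2 fold change was -0.12. Their intervals were apart for 0 higher and 2 lower genes. Of all genes with at least 1 FPKM in a library, 7.72% were called and 34.9% had intervals apart, so few calls would be found in lists this short. The most abundant, the HMG box protein gene Hbp1, had 104 FPKM (98.6 to 108) in control PGCs and 94.1 FPKM (89.7 to 98.5) in Klf9-OE PGCs. Of 15 genes of the NuRD, NCoR and CoREST complexes 13 had a row of their own in each file, 0 were called higher and 1 was called lower. It was Gps2, an NCoR subunit, with 41.1 FPKM (38.3 to 43.9) in control PGCs and listed at 0 in Klf9-OE PGCs, where an exact 0 can be a failed estimate. The most abundant of the 13, the histone demethylase gene Kdm1a, had 108 FPKM and 89.2 FPKM. The median log2 fold change of these genes was -0.10, and their intervals were apart for 1 higher and 4 lower genes, Gps2 among the lower.

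Genes whose promoters are reported to be bound or regulated by the members were also listed. Of these 10 genes, 1 was called higher, 1 was called lower, and the median log2 fold change was 0.08, where 19.3% of all genes above 0 were called. Ccl5, a chemokine gene regulated by KLF13, had 1.22 FPKM (0.485 to 1.959) in control PGCs and 2.55 FPKM (1.59 to 3.51) in Klf9-OE PGCs, with overlapping intervals. Drd1, the dopamine receptor gene repressed by KLF16, had 0.0775 FPKM (0.00764 to 0.147) and 0.0363 FPKM (0 to 0.0825), also with overlapping intervals. Txnrd2, a mitochondrial thioredoxin reductase gene and the most abundant of the 10, had 28.1 FPKM (26.1 to 30.0) and 24.3 FPKM (22.6 to 25.96).

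Markers of the cell types in the genital ridge also differed between the libraries. The 9 germ cell markers summed to 1515 FPKM in control PGCs and 1271 FPKM in Klf9-OE PGCs, with intervals apart and lower for 7 of them and higher for 1, where 34.9% of genes with at least 1 FPKM had intervals apart in either direction, and the lowest marker had 5.42 and 4.34 FPKM. The highest in control PGCs, Pou5f1, had 387 FPKM and 277 FPKM, and Dppa3 had 294 FPKM and 179 FPKM. These had the largest falls in FPKM of the list, so the sum does not describe every marker. The 1 higher gene was Dazl, with 351 FPKM and 378 FPKM. Ddx4 had 300 FPKM and 292 FPKM, with overlapping intervals. The 8 markers of gonad somatic and endothelial cells summed to 38.4 FPKM and 54.2 FPKM, with intervals apart and higher for 5 and lower for 1. Cdh5, an endothelial cadherin gene and the called gene of that list, had 1.995 FPKM in control PGCs and 5.09 FPKM in Klf9-OE PGCs. The 1 lower gene, Sox9, had 2.04 FPKM and 1.09 FPKM. Nr5a1 and Foxl2 also had lower values in Klf9-OE PGCs, with overlapping intervals. Pecam1, the most abundant of the list, had 16.8 FPKM and 24.2 FPKM, and it is known in fetal germ cells as well as in endothelium. Without Pecam1 the other 7 markers summed to 21.6 FPKM and 30.0 FPKM, with intervals apart and higher for 4 and lower for 1. The 4 macrophage markers summed to 1.45 FPKM and 1.22 FPKM, with Csf1r at 0.307 and 1.18 FPKM, Lyz2 at 1.00 FPKM and listed at 0, Ptprc at 0.0584 and 0.0239 FPKM, and Adgre1 at 0.0836 and 0.0196 FPKM. In these bulk libraries fewer cells of a type and less RNA per cell cannot be told apart, and the part of cell makeup in the values of the members was not tested.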

How the data were processed

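The data are 1 RNA-seq library of control PGCs and 1 of Klf9-OE PGCs, both at E13.5 (TruSeq v2, single-end reads of 51 bases, HiSeq2500). Per the methods and processing notes, the authors aligned reads to mm10 (TopHat2, Bowtie) and estimated expression with Cufflinks (versions are not given in the sources used here). The deposited values are FPKM for each locus with a 95% interval, which for single-end reads are RPKM. The files hold no read totals. The interval of a value gives the reads behind it where a single transcript was estimated, and by this measure 1.22 reads were counted in Klf9-OE for each read in control (median over 6340 genes). Where 1 to 9 reads were implied, within 0.06 of a whole number, even numbers made up 36.2% of 2004 genes in control and 89.6% of 1650 in Klf9-OE. Reads of Klf9-OE may have been counted more than once, which was not tested. Counted 2 times, 0.610 reads would stand for each control read and the Klf9-OE intervals would be too narrow by the square root of 2.

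From these files, FPKM was summed over rows of a symbol, and log2 fold changes were taken on log2(FPKM + 0.1), which understates changes of low genes. A gene was called where the ratio reached 2 or fell to 0.5 or less. The error of estimation of a log2 fold change is 1.96 times the standard error given by both intervals. With 1 library per group no test was made. The named genes are all members, the Sin3-HDAC subunits called or with intervals apart, and the called genes and the gene with the highest level in control PGCs in every other list. Outside this rule, Hdac1, Fam60a and Sap18 of the complex and Dppa3, Dazl, Ddx4, Sox9, Nr5a1 and Foxl2 of the cell type markers were named. Also named are the 3 genes whose log2 fold change was nearest to that of Klf9. These came from genes with at least 1 FPKM in both libraries, with small RNA symbols (Mir, Snor, Scarna and Rnu) left out. The members and the 10 lists were chosen with earlier results of these data known. Alternatives were pseudocounts of 0.01 and 1, rescaling to the same upper quartile or sum, a minimum of 1 FPKM, a ratio of 4, and Klf9-OE intervals widened by the square root of 2. The calculation was tested on simulated data. Annotation was GENCODE M21, and promoter windows were RefSeq (GRCm38.p6). The software was Python 3.11.15, numpy 2.4.6, pandas 2.3.3 and matplotlib 3.10.9.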

Additional observations from a re-analysis of the deposited data

Results flagged for a closer look

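Cufflinks assembled loci without a gene name at 2 of the members in Klf9-OE PGCs where the control library had none within 5000 bases, and these loci enter no comparison above. Inside the extent of Klf10 lay a locus at chr15:38298069-38298287 of mm10 with 9.36 FPKM (3.93 to 14.8) and a longer one, partly inside, at chr15:38299910-38343100 with 1.79 FPKM (1.25 to 2.33). Inside the extent of Sin3a lay loci at chr9:57072114-57072289 with 30.4 FPKM (16.1 to 44.7) and at chr9:57075574-57075765 with 17.2 FPKM (8.03 to 26.5), and another lay just past its end at chr9:57128723-57128975 with 5.87 FPKM (2.47 to 9.26). A further 3 loci near Klf10 had intervals that reach 0. At Klf16 the reverse was seen, with 2 such loci in control PGCs and 0 in Klf9-OE PGCs. The Klf9-OE library held 15127 loci without a gene name and the control library 6482, and the part of that surplus in these loci was not tested.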

How the results depend on the processing

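Of the 58 values recomputed under another setting, 55 kept their direction and stayed within the error of estimation or within 1.5 times the count reported. Some of the 55 could not change. A minimum of 1 FPKM leaves the log2 fold change of a single gene as it was, and calls rest on ratios taken without a pseudocount. The log2 fold change of Klf9 was 4.64 with a pseudocount of 1, against 5.09 as reported, since its low control value is then damped. It was 4.59 on the annotated transcript length, an alternative added after the data were seen, which also set the share of Klf9 in the Klf sum of Klf9-OE PGCs to 46.7%. Rescaling to a common upper quartile or a common sum left 4 members with intervals apart and 5 of the 7 members other than Klf9 below 0, and the median over all genes became 0.0041 and 0.041 respectively. The widened Klf9-OE intervals also left 4 members apart. For these 4 the change in interval width did not follow the change in reads, so widening by the square root of 2 may not match their error. With a minimum of 1 FPKM Klf14 could not be given. No paired analysis was possible because each group is 1 library, and no library could be left out. The interval of Klf14 had a half-width of 45.9% of its level in control PGCs and 35.4% in Klf9-OE PGCs.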
